A study of Rattus norvegicus with 62 samples.

Results

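Phenobarbital without any initiator was compared with plain water at the end of a rat liver tumour promotion study, in 8 of the 62 livers arrayed. The 8 were chosen by their labels as the terminal (10w) samples of the groups MC/PB, with 4 animals, and MC/water, with 4 animals, and all genes on the array were used. The animals were males of the outbred Sprague-Dawley stock Crj:CD(SD)IGS, and the labels used here give no age. Both had been dosed with methylcellulose (MC), the vehicle of the initiators, for 1 or 2 weeks and then left untreated for 2 weeks. The MC/PB animals then drank water with 500 ppm of phenobarbital (PB) for 6 weeks and the MC/water animals drank plain water. All 8 had a partial hepatectomy 1 week into this period, so the terminal samples came from livers that had regrown, in controls as in treated animals. The piece removed at that operation (5w) was arrayed from the same animals and is given side by side. A further 23 terminal livers came from animals given diethylnitrosamine (3 or 30 mg/kg), thioacetamide (45 mg/kg), methapyrilene (100 mg/kg) or acetaminophen (1000 mg/kg) before the same phenobarbital. They are not part of the contrast, and their values are only described. All 31 terminal arrays entered the fit, so the 23 share in the standard errors, the signal filter and the choice of probe set.

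Phenobarbital is a barbiturate that acts on the liver mainly through the constitutive androstane receptor (CAR, gene Nr1i3). The drug does not need to bind CAR: it blocks epidermal growth factor receptor signalling, CAR moves into the nucleus, and CAR paired with the retinoid X receptor switches on genes of drug oxidation, conjugation and export, the Cyp2b enzymes above all. In rodents, long exposure enlarges the liver and promotes the outgrowth of cells already initiated by a carcinogen.

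The 8 arrays had median signals of 99.3 to 121.7 and were scaled to a common trimmed mean of 500.24 to 500.27. The largest component of variation within groups, 11.8% of it over the series, split the arrays into set 1 and set 2, and each group here had 2 arrays in each. No label used here says what the sets stand for. Alb, the plasma protein albumin, ranged from 47783 to 55568 in the water livers and from 39383 to 61123 in the phenobarbital livers. Of 28 measured genes of hepatocyte function, 0 passed the test, against 2.26% of all genes tested, a share at which such a list can have 0. Their differences lay between -0.172 and 0.186 on the log2 scale.

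Of 10546 genes tested, 238 (2.26%) differed between phenobarbital and water at a limma adjusted p of 0.05. Of these, 168 (1.59% of the genes tested) were higher under phenobarbital and 70 (0.664%) were lower, and 65 and 23 of them differed at least 2-fold. Differences below are phenobarbital minus water on the log2(signal + 25) scale with their standard error, n = 4 animals a group. That scale understates changes from low signals. The standard errors come from the pooled spread of all 31 terminal arrays, initiated livers included. Signals of the 4 animals of a group are given in the order of their numbers in the labels. In 220 of the 238 genes (2.09% of the genes tested) the groups did not overlap, while 959 genes (9.09%) did not overlap with or without passing, 533 higher (5.05%) and 426 lower (4.04%). Leaving out 1 animal at a time gave between 141 genes (without phenobarbital replicate 1) and 179 genes. Among named genes, 48 of the 83 that passed did so in every such fit in which they were tested, and those that did not are marked where they are described. Counts of list members below stand beside the 2.26% called among all genes tested, at which a short list can have 0 called genes. Enzymes and transporters of drug handling were among the largest rises.

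**Figure D1:**
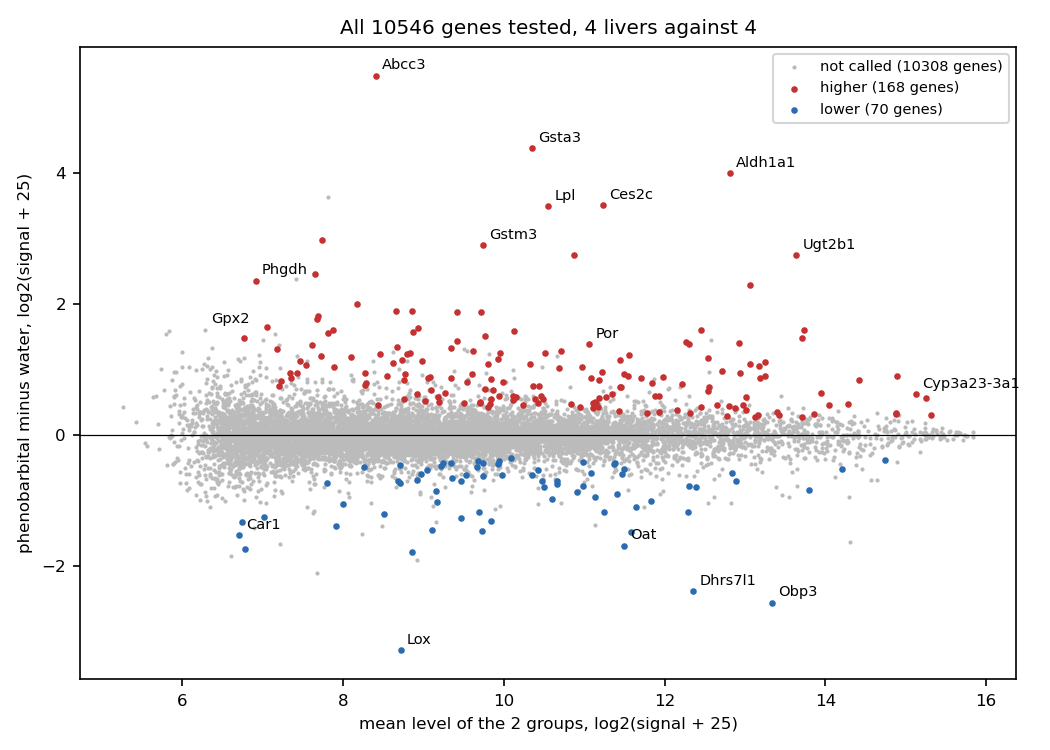
Each point is 1 of the 10546 genes tested, with the mean level of both groups on the x axis and the difference, phenobarbital minus water, on the y axis, both as log2(signal + 25). The 168 genes called higher are red, the 70 called lower are blue, and Abcc3 at 5.49 and Lox at -3.29 are the extremes.

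Cyp2b1 and Cyp2b2, the cytochromes P450 for which phenobarbital induction is best known, share a single probe set on this array, so their transcripts cannot be told apart. The probe set read 799, 3159, 3768 and 2964 in the water livers and 34980, 42248, 45693 and 42323 in the phenobarbital livers. The lowest phenobarbital liver lay far above the highest water liver, and water replicate 1 lay below the other water livers. The difference was 4.14 ± 0.25, or 17.6-fold (adjusted p = 1.62e-12 over 18796 probe sets, of which 294, or 1.56%, passed). After 1 week the same probe set had differed by 3.69 ± 0.29 (adjusted p = 8.39e-10). The 23 initiated livers on phenobarbital read 34389 to 51165.

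The promoters of the pair are shown because both genes are read by that single probe set. The 120 bases below are from RefSeq (GRCr8, plus strand), with the bases that differ between them in capitals. Aligned without gaps at a shift of 17 bases, 225 of 233 bases (96.6%) before the annotated starts were the same.
Cyp2b1, chr1:90645999-90646118: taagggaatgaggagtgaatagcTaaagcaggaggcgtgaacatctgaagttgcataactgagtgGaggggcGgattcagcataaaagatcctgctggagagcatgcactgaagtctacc
Cyp2b2, chr1:90722144-90722263: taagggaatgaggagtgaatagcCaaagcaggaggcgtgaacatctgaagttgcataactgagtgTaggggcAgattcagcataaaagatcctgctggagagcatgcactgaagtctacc

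Some other cytochromes P450 passed. Of 26 measured genes of families 2 and 3, 3 rose (11.5%, against 2.26% called among all genes tested) and 0 fell. Their median difference was 0.0154 against -0.00944 over all genes tested. The median of the 26 was -0.0279 with quantile normalization, -0.0129 with a higher signal minimum and -0.046 within set 1. It was -0.0171 without water replicate 2, -0.0197 without water replicate 3 and -0.0263 without phenobarbital replicate 3. Cyp3a23-3a1, a drug-metabolising P450, rose from 26986 to 30880 in the water livers to 38930 to 48362, a difference of 0.62 ± 0.08 (adjusted p = 1.17e-05). Cyp2a1, a testosterone 7-alpha-hydroxylase, rose 2.17-fold, with water livers at 5324 to 8013 and phenobarbital livers at 11848 to 17266 (difference 1.12 ± 0.23, adjusted p = 0.00455). Both were already strongly expressed in water livers. Cyp2c6v1 passed narrowly at 0.30 ± 0.08 (adjusted p = 0.0453) and lost the call when any animal but phenobarbital replicate 1 was left out. Cyp2c11 at 0.02 ± 0.10, Cyp2c7 at 0.10 ± 0.11, Cyp3a2 at 0.21 ± 0.10, Cyp3a9 at 0.96 ± 0.44 and Cyp2e1 at -0.16 ± 0.15 did not pass.

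Cyp2a3, outside the rule for naming genes and picked after its values were seen, read 48.0, 66.1, 33.9 and 18.1 in the water livers and 1547, 556, 2037 and 185 in the phenobarbital livers. The groups did not overlap, but the treated animals spread widely, and the difference of 3.63 ± 1.07 did not pass (adjusted p = 0.0682). The initiated livers ranged from 4.83 to 3153 for this gene.

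Of 37 measured partners of P450 and other oxidising enzymes, 6 rose and 0 fell, 31 did not pass, and the median was 0.0784. The count of rises was 4 without water replicate 4. Por, the reductase that passes electrons to every microsomal P450, read 1305, 1176, 1482 and 1245 in the water livers and 5526, 2896, 3472 and 2494 under phenobarbital. All treated livers were above all controls, with replicate 1 the highest, and the difference was 1.39 ± 0.26 (2.61-fold, adjusted p = 0.00197). Cyb5a, cytochrome b5, another electron donor, rose by 0.34 ± 0.08 (adjusted p = 0.0123), a call lost without water replicate 4. Alas1, the rate-limiting enzyme of heme synthesis, read 5128, 3660, 9570 and 6456 in the water livers and 18196, 12395, 10432 and 10286 under phenobarbital. Its groups were separated by a small gap, from water replicate 3 to phenobarbital replicate 4, and the difference was 1.09 ± 0.23 (2.13-fold, adjusted p = 0.00587; 0.0619 when only the 8 livers entered the fit). It was the single gene of 17 measured in heme synthesis and breakdown to pass.

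Aldh1a1, which oxidises retinaldehyde and other aldehydes, read 1894, 2195, 1692 and 1402 in the water livers and 29177, 27707, 27246 and 31070 in the phenobarbital livers. Each group was tight, and the difference of 4.0 ± 0.20 corresponds to 16-fold (adjusted p = 7.77e-15). Akr7a3, which reduces aflatoxin dialdehyde, rose from 2860 to 6057 in the water livers to 17098 to 20728, a difference of 2.29 ± 0.28 (adjusted p = 4.73e-06). Aldh1l1, a folate enzyme, rose by 0.65 ± 0.12 (adjusted p = 0.00183).

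Among 13 measured hydrolases of drugs and epoxides, 3 rose and 0 fell. Ces2c, a carboxylesterase that cleaves ester and amide drugs, read 681, 614, 725 and 739 in the water livers and 9257, 8522, 6770 and 8201 under phenobarbital. The spread within groups was small beside the gap between them, and the difference was 3.52 ± 0.32 (11.4-fold, adjusted p = 1.08e-08). Ephx1, microsomal epoxide hydrolase, rose from 17270 to 27607 in the water livers to 37578 to 46721 (0.90 ± 0.11, adjusted p = 2.27e-06). The third, Ces1c, rose by 0.32 ± 0.08 (adjusted p = 0.0182) and lost the call when water replicate 2 or 3, or phenobarbital replicate 2, 3 or 4, was left out.

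**Figure D2:**
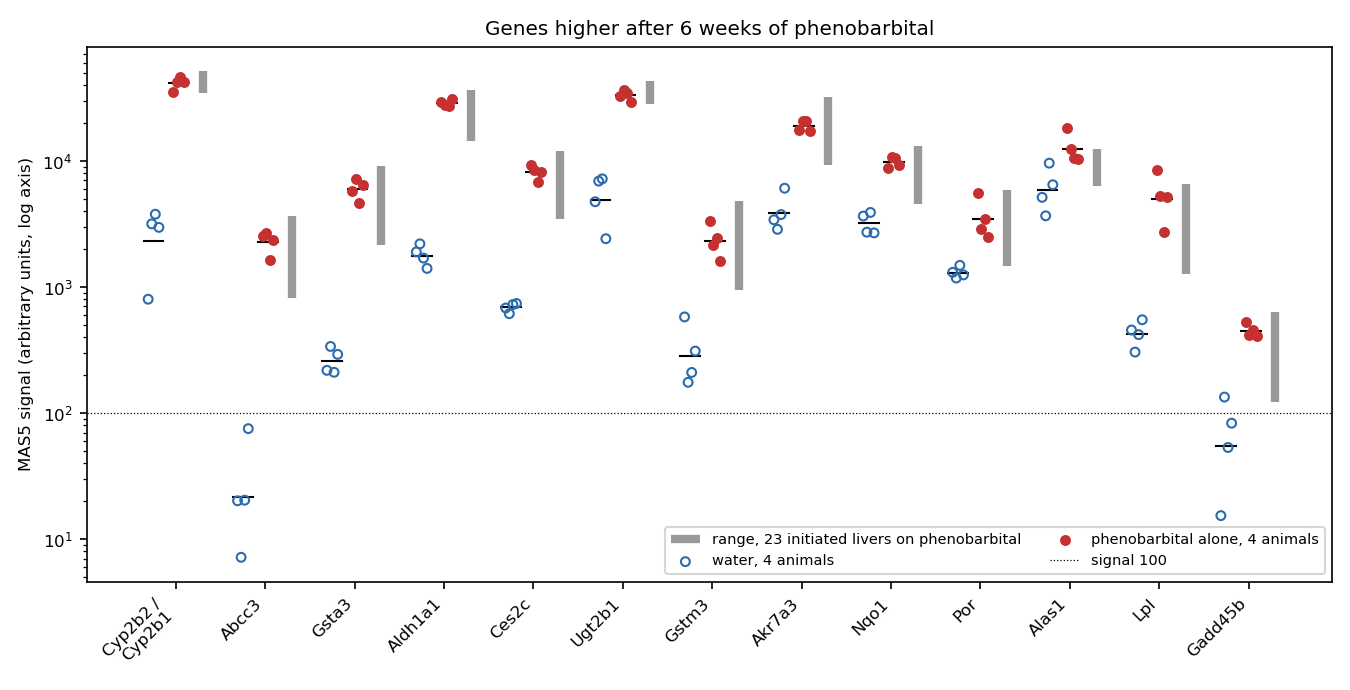
MAS5 signal on a log axis for the Cyp2b probe set and 12 genes that were higher under phenobarbital; open blue circles are the 4 water livers, red circles the 4 phenobarbital livers, short lines the geometric means, and grey bars the range of the 23 initiated livers on phenobarbital. In each of the 13 the 4 phenobarbital livers lie above the 4 water livers; Abcc3 starts from water signals of 7.19 to 75.3.

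Glutathione transferases, which join glutathione to reactive compounds, had 8 of 21 measured members higher and 0 lower, with a median of 0.246, and the count was 8 in each of the 8 fits with an animal left out. Gsta3, an alpha-class member, read 218, 337, 211 and 292 in the water livers and 5774, 7133, 4638 and 6434 under phenobarbital. All 4 treated livers lay far above the controls, and the difference was 4.38 ± 0.31 (20.9-fold, adjusted p = 3.03e-11). Gstm3, of the mu class, read 578, 175, 210 and 310 against 3326, 2163, 2459 and 1607 (2.90 ± 0.38, adjusted p = 1.43e-05). The other members that rose did so by less. Gstt3 rose 3.03-fold to 22724 to 24840, Gsta4 rose 2.81-fold to 21446 to 24250, Mgst2 rose 2.08-fold to 12336 to 15126, and Gstm1 rose 1.48-fold to 43061 to 51508. A probe set shared by Gsta5 and Gsta2 rose from 26111 to 32204 in the water livers to 45032 to 52162 (0.75 ± 0.08, adjusted p = 3.24e-07). Gstp1, the pi-class member used as a marker of preneoplastic liver foci, read 1065, 843, 947 and 612 in the water livers and 1728, 954, 835 and 759 under phenobarbital. Its groups overlapped and the difference of 0.25 ± 0.41 did not pass (adjusted p = 0.87).

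Glucuronidation, the attachment of glucuronic acid, had 3 of 9 measured genes higher and 0 lower, a count that fell to 1 without water replicate 1 or phenobarbital replicate 3. Ugt2b1, a transferase for steroids and drugs, read 4732, 6896, 7188 and 2410 in the water livers and 32382, 36345, 34288 and 29417 under phenobarbital. The treated livers formed a narrow band above the more variable controls, and the difference was 2.75 ± 0.20 (6.74-fold, adjusted p = 6.75e-11). Ugdh, which makes the sugar donor UDP-glucuronate, rose by 0.95 ± 0.22 (adjusted p = 0.0148), and Ugt2a1 by 0.76 ± 0.21 with overlapping groups. Ugdh lost the call without water replicate 1 or 2 or phenobarbital replicate 2 or 3, and Ugt2a1 without water replicate 1 or 4 or phenobarbital replicate 1, 3 or 4. The 2 probe sets shared by the 8 Ugt1a genes, the family that includes the bilirubin and thyroxine transferase Ugt1a1, rose by 0.64 ± 0.11 (adjusted p = 0.000687) and 0.70 ± 0.10 (adjusted p = 0.000145). Of 19 measured genes of sulfation, acetylation and methylation, 0 passed, against 2.26% of all genes tested.

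Exporters and importers moved in both directions. Of 24 measured drug and bile acid transporters, 3 rose and 3 fell, and the falls were 1 without water replicate 1 or 3 and 0 without water or phenobarbital replicate 4. Abcc3 (MRP3), which exports glucuronides and bile acids across the blood-facing membrane, read 20.2, 7.19, 20.4 and 75.3 in the water livers and 2515, 2657, 1620 and 2372 under phenobarbital. It had the largest difference of all genes tested, 5.49 ± 0.34 (adjusted p = 2.67e-12). Since every water liver was under a signal of 100, the size is given as a bound, at least 22.5-fold higher, with signals under 100 set to 100. Abcc2 (MRP2), the exporter into bile, rose 1.97-fold from 4037 to 5175 in the water livers to 9114 to 9867 (adjusted p = 0.00225). Abcb1a, a P-glycoprotein drug pump, read 57.8, 149, 129 and 107 against 747, 411, 229 and 233 (1.56 ± 0.34, adjusted p = 0.00917), a call lost without water replicate 1 or phenobarbital replicate 1.

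The 3 that fell were carriers of bile acids, phospholipid or organic anions. Slc22a8 (OAT3), an organic anion importer, read 5748, 4082, 5280 and 5539 in the water livers and 1842, 2367, 3471 and 705 under phenobarbital (-1.49 ± 0.38, adjusted p = 0.0314). Slc10a2, a sodium-dependent bile acid importer, fell by 1.05 ± 0.27 (adjusted p = 0.0301), and Abcb4, the phosphatidylcholine exporter of the bile canaliculus, fell by 0.53 ± 0.12 (adjusted p = 0.0119). In each the groups did not overlap, but the calls depended on single animals. The call on Slc22a8 was lost without water replicate 1, 3 or 4 or phenobarbital replicate 1 or 4, that on Slc10a2 without any water animal or phenobarbital replicate 2 or 4, and that on Abcb4 without water or phenobarbital replicate 4. Slco1a4, an importer often used as a CAR and PXR target, read 8418 to 15945 in the water livers and 12194 to 17245 under phenobarbital and did not pass (0.41 ± 0.17, adjusted p = 0.237).

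None of the receptors passed: of 35 measured receptors and cofactors of the drug response, 0 passed, against 2.26% of all genes tested. Nr1i3 (CAR) read 321, 340, 470 and 586 in the water livers and 569, 378, 332 and 458 under phenobarbital, a difference of 0.03 ± 0.31. Nr1i2 (PXR), the related drug sensor, differed by -0.17 ± 0.17. Ahr, the aryl hydrocarbon receptor, read 161 to 205 in the water livers and 212 to 527 under phenobarbital without overlap, and did not pass (0.84 ± 0.28, adjusted p = 0.117). Of 6 measured targets of that receptor only Nqo1 rose. Cyp1a2, another of its targets, read 7150 to 12925 in the water livers and 2936 to 7484 under phenobarbital (-0.95 ± 0.30, adjusted p = 0.094).

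**Figure D3:**
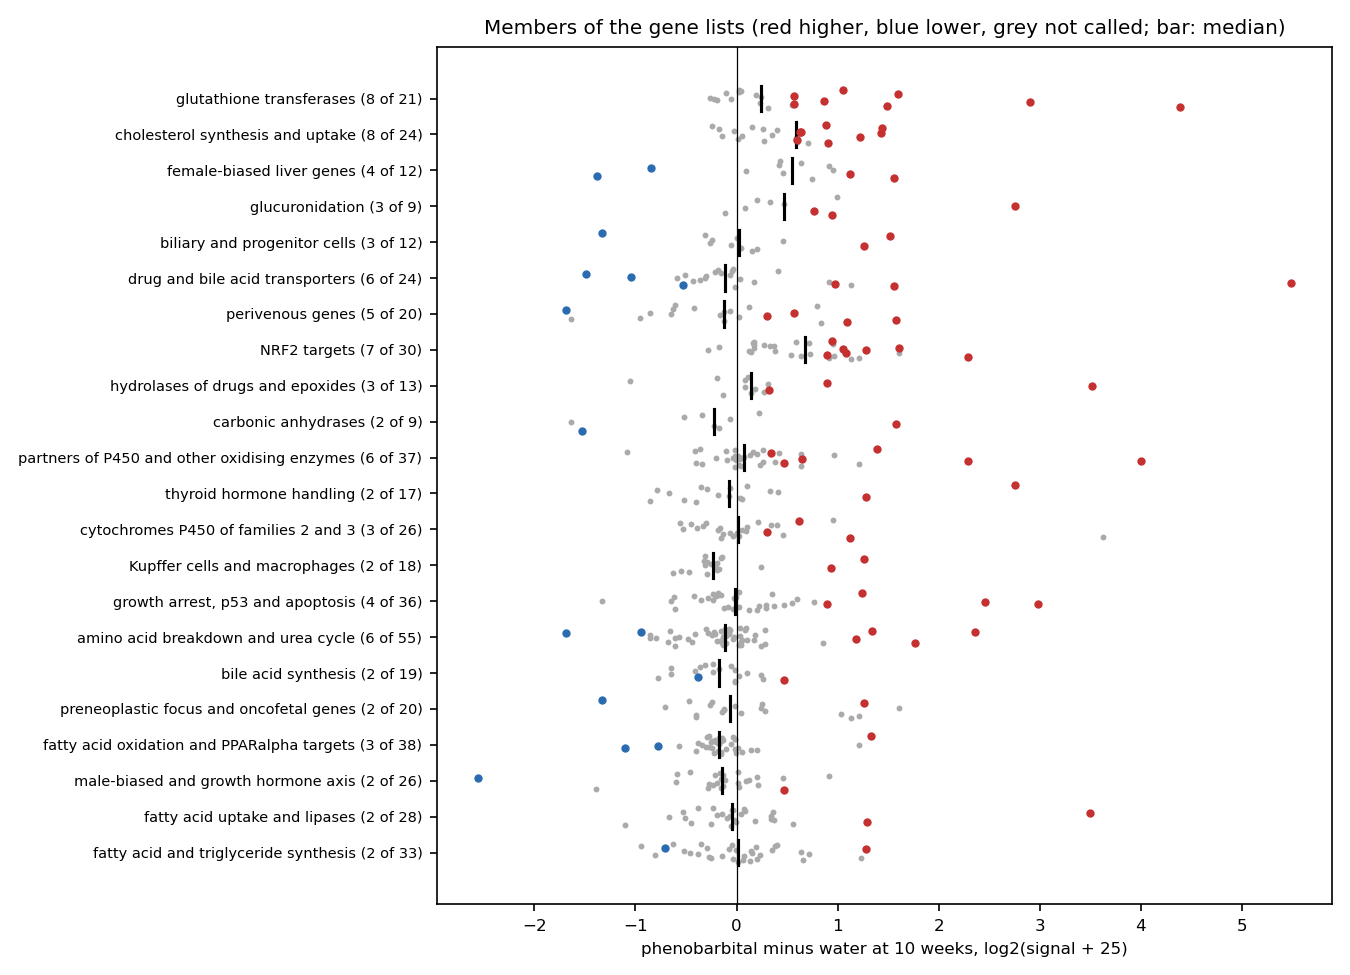
Difference between phenobarbital and water, as log2(signal + 25), for every measured member of the 22 lists with the largest share of members called; red points rose, blue points fell, grey points did not pass, black bars are list medians, and the counts beside each name are called and measured members. Glutathione transferases have 8 of 21 called, all to the right of 0, and drug and bile acid transporters have 3 on each side.

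Targets of NRF2, the transcription factor of the oxidant and electrophile response, are shown next. Of 30 measured, 7 rose and 0 fell, 28 had a positive difference, and the median was 0.675 against -0.00944 over all genes. The count was between 5 and 8 when an animal was left out, 10 with only the compared groups or with the array set as a block, 12 with the replicate number as a block, 4 within each array set and 3 with a minimum log2 fold of 0.5. Nqo1, a quinone reductase, read 3646, 2715, 3892 and 2681 in the water livers and 8749, 10631, 10590 and 9298 under phenobarbital. The lowest treated liver was above the highest control by a wide margin, and the difference was 1.61 ± 0.26 (3.05-fold, adjusted p = 0.000332). Gsr, glutathione reductase, rose from 735 to 1006 in the water livers to 1546 to 2207 (1.08 ± 0.21, adjusted p = 0.00341). Me1, the cytosolic malic enzyme that makes NADPH, rose by 1.28 ± 0.31 (adjusted p = 0.0231), a call lost without water replicate 2 or 3 or phenobarbital replicate 1 or 2. Pir, pirin, outside this list, read 284, 267, 547 and 708 against 1828, 1420, 1777 and 1380 (1.87 ± 0.25, adjusted p = 1.51e-05). Gclc, the catalytic subunit of glutathione synthesis, did not pass (0.54 ± 0.22). Gpx2, glutathione peroxidase 2, read 43.1, 1108, 51.8 and 32.9 under phenobarbital, so that phenobarbital replicate 2 alone stood far above the 4 water livers at 5.60 to 59.3, and it did not pass (adjusted p = 0.471). Phenobarbital replicate 2 was not highest for Gstp1 or Ggt1, 2 other focus markers, with 954 and 125. It was the highest treated liver for Cryab (1766), Sox4 (2130) and Myc (1163), genes picked after their values were seen. What set this liver apart was not tested.

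Sequences before the starts of some genes that changed hold letters of the antioxidant response element, the NRF2 site. Ugdh and Me1 are on the list of NRF2 targets, and the others shown are not. TGACNNNGC was searched on both strands in the 250 bases before the start in RefSeq (GRCr8), with matches in capitals. These letters also cover part of the sites of AP-1, TGACTCA, where GC follows. Other named genes with a match are not shown. They were Idi1, which rose, Nim1k and Slc25a25, which fell, and Alb, Cdkn1a, Fam184a, Gpx2 and Gstp1, which did not pass. The genes shown are 4 that rose and 2 that fell, picked without a fixed rule.
Gsta3, chr9:31154952-31154988, plus strand: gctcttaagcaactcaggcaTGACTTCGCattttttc
Pir, chrX:33851050-33851183, minus strand: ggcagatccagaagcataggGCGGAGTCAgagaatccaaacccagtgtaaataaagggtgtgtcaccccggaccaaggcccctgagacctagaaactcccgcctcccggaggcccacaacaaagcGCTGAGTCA
Me1, chr8:96540383-96540431, minus strand: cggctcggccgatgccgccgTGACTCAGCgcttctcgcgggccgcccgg
Ugdh, chr14:43202291-43202339, plus strand: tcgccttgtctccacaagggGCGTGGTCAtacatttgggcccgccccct
Rb1, chr15:54911858-54911899, minus strand: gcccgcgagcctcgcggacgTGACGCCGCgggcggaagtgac
Pltp, chr3:174012003-174012051, minus strand: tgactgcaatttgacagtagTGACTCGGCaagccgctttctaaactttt

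The letters were not particular to genes that rose. Promoters were matched for 198 of the 238 genes, and TGACNNNGC was found in 26 of 143 that rose (18.2%) and 11 of 55 that fell (20%), against 12.7% of the 8813 genes tested with a promoter and 10.2% of all promoters in the table. The DR4 element that CAR binds was found in 0 of the 198 and in 0.0765% of all promoters. A match is a description of these letters and not of binding, and elements further upstream lie outside the window.

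Cholesterol synthesis rose in part. Of 24 measured genes of cholesterol synthesis and uptake, 8 rose and 0 fell, 20 had a positive difference and the median was 0.591. The count was 3 without water replicate 2, 3 without water replicate 3, and 4 without phenobarbital replicate 1 or 2. Msmo1, a sterol C4-methyl oxidase, read 2765, 2629, 2105 and 5110 in the water livers and 11220, 7940, 8581 and 5427 under phenobarbital. Water replicate 4 was the highest control and phenobarbital replicate 4 the lowest treated liver, and they nearly met, with a difference between groups of 1.42 ± 0.27 (adjusted p = 0.00193). Idi1, isopentenyl diphosphate isomerase, showed the same layout, 1530, 1475, 1827 and 3413 against 5915, 5197, 4744 and 2960 (1.22 ± 0.27, adjusted p = 0.00927), as did Cyp51, lanosterol demethylase, with 9811 in water replicate 4 and 8981 in phenobarbital replicate 4 (0.90 ± 0.21, adjusted p = 0.0139). Mvd rose by 0.62 ± 0.13 and Fdft1, squalene synthase, by 0.59 ± 0.13 (adjusted p = 0.00557 and 0.00927). The other members that rose, outside the rule for naming genes, were Sqle at 1.44, Tm7sf2 at 0.88 and Mvk at 0.64.

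For 4 of the 5 cholesterol genes named by the rule the rise differed in size between the array sets. Within set 1 it was 2.01 for Msmo1, 1.65 for Idi1, 1.21 for Cyp51 and 0.78 for Fdft1, and within set 2 it was 0.84, 0.80, 0.59 and 0.40. Mvd, the fifth, was 0.65 and 0.60. The call on Idi1 was lost without water replicate 2 or phenobarbital replicate 1, that on Cyp51 without water replicate 2 or 3 or phenobarbital replicate 1 or 2, and that on Fdft1 without water replicate 3. The part of the array set in these values was not tested beyond this split.

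Lipid handling outside sterols changed at a few genes. Lpl, lipoprotein lipase, which releases fatty acids from triglyceride-rich lipoproteins and is low in normal adult hepatocytes, read 455, 305, 418 and 549 in the water livers and 8439, 5288, 2747 and 5165 under phenobarbital. The lowest treated liver was well above the highest control, and the difference was 3.49 ± 0.41 (11.3-fold, adjusted p = 2.11e-06). Cd36, a fatty acid translocase, rose from 311 to 855 in the water livers to 1023 to 1676 (1.29 ± 0.25, adjusted p = 0.00278; 1.56 within set 1 and 1.01 within set 2). These were the only members that passed among 28 measured genes of fatty acid uptake and lipases. Plin2, which coats lipid droplets, fell from 8434 to 10878 in the water livers to 5236 to 6551 (-0.71 ± 0.15, adjusted p = 0.00499; 0.0666 with the mean of its probe sets). Pltp, the phospholipid transfer protein, fell by 1.27 ± 0.30 (adjusted p = 0.0161), a call lost without replicate 2 or 3 of either group.

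Fatty acid oxidation and other PPARalpha targets had 6 positive differences among 38 measured genes, a median of -0.17, 1 gene higher and 2 lower. Cpt1a, which admits long-chain fatty acids to mitochondria, read 5631, 6435, 3465 and 3795 in the water livers and 2808, 3045, 1996 and 1288 under phenobarbital (-1.10 ± 0.28, adjusted p = 0.0296). Cyp4a1, a fatty acid omega-hydroxylase, fell by 0.78 ± 0.20 (adjusted p = 0.0356), and Vnn1, a pantetheinase, rose by 1.33 ± 0.35 (adjusted p = 0.0351). The call on Cpt1a was lost without water replicate 1 or 2 or phenobarbital replicate 3 or 4, that on Cyp4a1 without water replicate 1 or 2 or phenobarbital replicate 1, 2 or 3, and that on Vnn1 without water replicate 1, 2 or 3 or phenobarbital replicate 1 or 2. Bile acid synthesis had 1 of 19 measured genes higher, Akr1c14, a hydroxysteroid dehydrogenase (0.47 ± 0.12, adjusted p = 0.0351), and 1 lower, Baat, which joins bile acids to amino acids (-0.38 ± 0.11, adjusted p = 0.0497). Akr1c14 kept the call only without water replicate 3 or phenobarbital replicate 1, and Baat only without phenobarbital replicate 4, so that both counts were 0 without water replicate 1, 2 or 4 or phenobarbital replicate 2 or 3. Cyp7a1, the rate-limiting enzyme, read 971 to 2303 in the water livers and 415 to 1498 under phenobarbital and did not pass (-0.64 ± 0.47).

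Of 55 measured genes of amino acid handling, 4 rose (Phgdh, Psat1, Asns and Ddc), 2 fell (Oat and Prodh) and 49 did not pass, with a median of -0.115. The falls were 0 without water replicate 1 or 2 or phenobarbital replicate 1, 2 or 3, and 1 without water replicate 3 or phenobarbital replicate 4. Phgdh, the first enzyme of serine synthesis from a glycolytic intermediate, read 43.8, 4.04, 23.7 and 57.8 in the water livers and 280, 273, 220 and 225 under phenobarbital. Every water liver was under a signal of 100 and the treated livers formed a narrow band, at least 2.48-fold higher with signals under 100 set to 100 (difference 2.36 ± 0.42, adjusted p = 0.00113). Psat1, the next enzyme, read 176, 179, 230 and 390 against 524, 553, 663 and 791 (1.34 ± 0.32, adjusted p = 0.0182), a call lost without water replicate 1 or 2 or phenobarbital replicate 4. Asns, asparagine synthetase, read 80.6, 83.3, 80.4 and 101 against 431, 296, 379 and 322 (1.77 ± 0.25, adjusted p = 5.39e-05). Ddc, aromatic amino acid decarboxylase, rose from 3298 to 4512 in the water livers to 8370 to 9352 (1.18 ± 0.12, adjusted p = 2.02e-07). Its other probe set differed by 0.79 and did not pass, and the mean of both gave an adjusted p of 0.0519. Asns and Trib3, a pseudokinase, were the only genes to pass of 40 measured for endoplasmic reticulum chaperones and stress. Trib3 rose by 1.24 ± 0.33 (adjusted p = 0.0412) and kept the call only when water replicate 4 or phenobarbital replicate 4 was left out.

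Oat, ornithine aminotransferase of perivenous hepatocytes, read 6960, 7797, 3488 and 3704 in the water livers and 1596, 1282, 1533 and 1982 under phenobarbital (-1.69 ± 0.43, adjusted p = 0.0311), a call lost without water replicate 1 or 2 or phenobarbital replicate 1, 2 or 3. Glul, glutamine synthetase, which marks the last hepatocytes around the central vein, read 2585, 2798, 2383 and 2667 against 1590, 1371, 1354 and 1393. Its groups did not overlap, but the difference of -0.86 ± 0.24 did not pass (adjusted p = 0.0529). The standard deviations of its log2 values were 0.10 on water and 0.11 on phenobarbital, while the standard error pools all terminal arrays. After 1 week Glul had passed, at -0.79 ± 0.19 (adjusted p = 0.0269). Axin2, a Wnt target of the same zone, did not pass either (-0.12 ± 0.24). Of 20 measured perivenous genes 4 rose and 1 fell, counts that were 2 and 3 with only the compared groups and 6 and 2 with the array set as a block. Without water replicate 2 or 3 or phenobarbital replicate 2 there were 2 rises, and without water replicate 1 or 2 or phenobarbital replicate 1 or 3 there were 0 falls. Of 22 measured periportal genes 0 passed, against 2.26% of all genes tested, and 3 had a positive difference.

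The largest fall was in Lox, lysyl oxidase, which cross-links collagen and elastin. It read 649, 1096, 1288 and 2986 in the water livers and 72.1, 104, 123 and 152 under phenobarbital. Every treated liver was below every control, and the difference was -3.29 ± 0.30 (9.77-fold lower, adjusted p = 1.20e-08). A further probe set of Lox differed by -2.38 in the same direction and passed. Lox was the only one of 44 measured genes of collagen, cross-linking and stellate cells to pass, a share of 2.27% against 2.26% of all genes tested. The list's median was -0.0281.

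Obp3, of the alpha-2u-globulin family of male rat liver, read 26282, 24385, 22558 and 27137 in the water livers and 7191, 4285, 3750 and 2750 under phenobarbital (-2.56 ± 0.56, 5.90-fold lower, adjusted p = 0.0087). It was the only gene to fall among 26 measured for male-biased expression and the growth hormone axis, where Akr1c14 rose with the limits given above. Among 12 female-biased genes, Cyp2a1 and Abcb1a rose and Hao2, an oxidase of hydroxy acids, and Cyp17a1, a steroid hydroxylase, fell. Of the 12, 10 had a positive difference, and the median was 0.55 (0.628 after 1 week). The 26 male-biased and growth hormone genes had a median of -0.143, with 10 positive. Cyp17a1 read 334, 330, 405 and 401 in the water livers against 95.5, 101, 165 and 148 (-1.38 ± 0.28, adjusted p = 0.00492), and Hao2 fell by 0.84 ± 0.18 (adjusted p = 0.00849). Dhrs7l1, a dehydrogenase, read 18256, 11795, 9534 and 9909 against 4650, 1455, 3938 and 982 (-2.38 ± 0.61, adjusted p = 0.0322). It lost the call in 6 of the 8 fits with an animal left out, all but those without phenobarbital replicate 1 or 3, and was -1.62 within set 1 and -3.15 within set 2.

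Rb1, the retinoblastoma tumour suppressor that restrains entry into DNA synthesis, read 779, 912, 913 and 951 in the water livers and 350, 345, 259 and 295 under phenobarbital. Both groups were tight, and the difference was -1.44 ± 0.22 (2.72-fold lower, adjusted p = 0.000125). It was the single gene of 44 measured for the cell cycle to pass, a share near the 2.26% of all genes tested. Cdk1 at 0.15 ± 0.41, Mki67 at 0.08 ± 0.48 and Ccnd1 at -0.66 ± 0.34 did not. For Ccnd1, cyclin D1, phenobarbital replicate 1 read 2334, within the range of the water livers, and the other treated livers read 950 to 1098.

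Dmxl2, a regulator of the vesicle proton pump, read 1986, 832, 1239 and 1777 against 468, 534, 494 and 452 (-1.46 ± 0.22, adjusted p = 0.000141). Lrtm2, a leucine-rich repeat membrane protein, read 764, 896, 935 and 761 against 223, 154, 204 and 352 (-1.79 ± 0.33, adjusted p = 0.00145). Dexi fell by 1.02 ± 0.19 (adjusted p = 0.00183). In all 3 the groups did not overlap, and the calls held with any of the animals left out. Other falls among the 20 largest were less steady. Nim1k, a kinase, was at least 1.77-fold lower with signals under 100 set to 100 (difference -1.74). It lost the call without phenobarbital replicate 1 and was not tested with any of the water animals left out. Slc13a4, a sulfate carrier, differed by -1.31 and lost it without water replicate 3 or phenobarbital replicate 1. Resp18 at -1.26, LOC102554026 at -1.21 and Tff3 at -1.33 (at least 1.45-fold lower on the same bound) lost it in 4 fits each, and Slc25a25 at -1.17 in all 8.

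**Figure D4:**
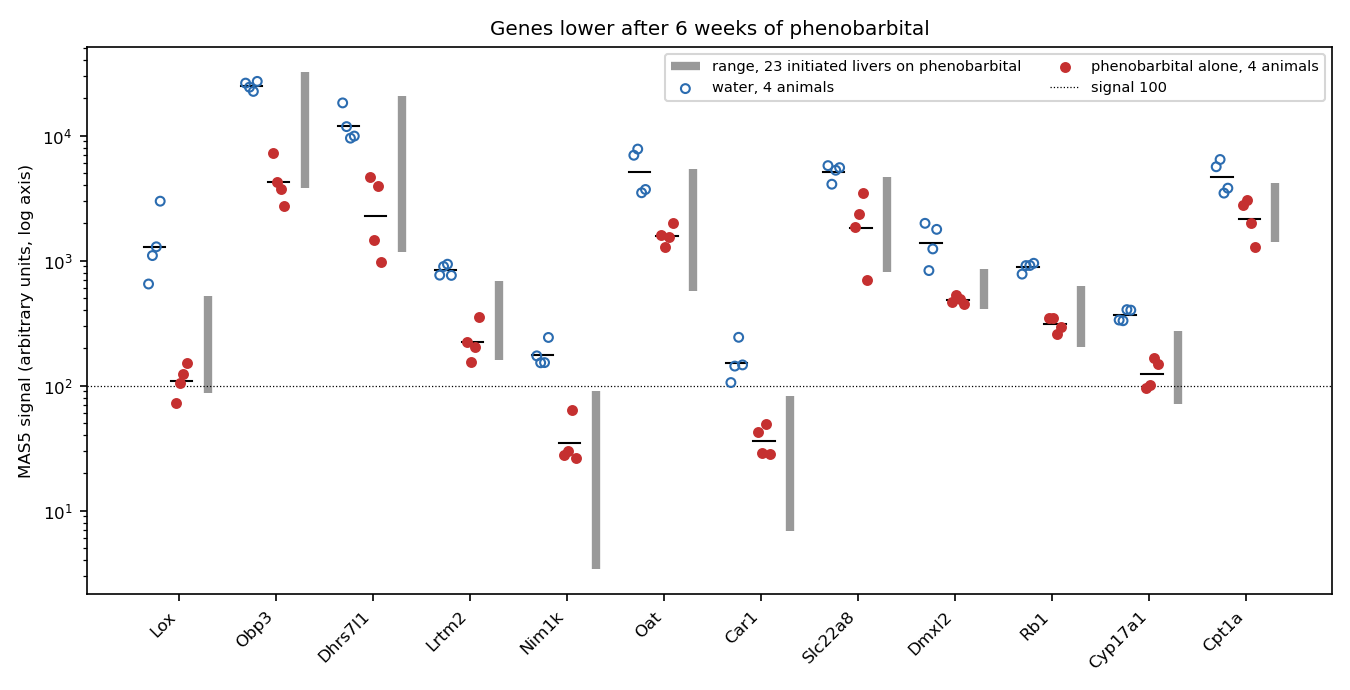
MAS5 signal on a log axis for 12 genes that were lower under phenobarbital, drawn as in the plot of genes that rose: water livers as open blue circles, phenobarbital livers as red circles, geometric means as short lines, the range of the 23 initiated livers as grey bars. In each gene the 4 phenobarbital livers lie below the 4 water livers, and Nim1k and Car1 fall under the signal of 100.

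Growth arrest and stress genes rose at a few members, 4 of 36 measured, with 0 falling. Gadd45b, a stress-induced regulator of MAP kinase signalling that CAR is known to bind and induce, read 15.4, 134, 53.4 and 83.2 in the water livers and 524, 416, 453 and 408 under phenobarbital (2.46 ± 0.35, adjusted p = 5.39e-05; 3.19 within set 1 and 1.74 within set 2). Ddit4l, an inhibitor of mTOR signalling, read 64.5, 41.3, 58.1 and 43.4 against 497, 679, 681 and 484, at least 5.77-fold higher with signals under 100 set to 100 (adjusted p = 0.000231). The others were Trib3 and Ephx1, described above. Mdm2, the p53 inhibitor, read 604 to 686 in the water livers and 762 to 1267 under phenobarbital without overlap and did not pass (0.60 ± 0.17, adjusted p = 0.0628). Cdkn1a, the p53 target p21, overlapped between groups (0.37 ± 0.21).

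The carbonic anhydrases, which interconvert carbon dioxide and bicarbonate, had 1 of 9 measured higher and 1 lower. Car2 read 363, 148, 220 and 299 in the water livers and 692, 980, 904 and 611 under phenobarbital (1.58 ± 0.38, adjusted p = 0.0204), a call lost without replicate 2 or 3 of either group. Car1 fell from 106, 143, 243 and 146 to 42.4, 28.9, 49.4 and 28.4, at least 1.52-fold lower with signals under 100 set to 100 (-1.53 ± 0.32, adjusted p = 0.00587). With any of the water animals left out it was under the signal filter and was not tested. Car3, outside the rule for naming genes and picked after its values were seen, read 23156 to 47382 against 6323 to 19956 and did not pass (adjusted p = 0.117).

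Several other genes among the 20 largest rises are on no list used here. Zdhhc2, a palmitoyltransferase, read 372, 235, 344 and 402 in the water livers and 1182, 1586, 1028 and 1441 under phenobarbital (1.88 ± 0.25, adjusted p = 1.77e-05). Sema3c, a secreted semaphorin, read 166, 215, 169 and 194 against 1017, 915, 718 and 490 (1.90 ± 0.38, adjusted p = 0.00391). Adgrg2, an adhesion receptor, rose by 1.99 ± 0.38 (adjusted p = 0.00231) and Egln3, a HIF prolyl hydroxylase, by 1.65 ± 0.28 (adjusted p = 0.000736). The calls on these genes held with any of the animals left out. RGD1309362 differed by 2.75 ± 0.76 and lost the call in all 8 such fits, Cryab, a small heat shock protein, by 1.90 ± 0.52 and in 7, all but that without water replicate 4, and Snx10, a sorting nexin, by 1.82 ± 0.47 and in 6, all but those without water replicate 4 or phenobarbital replicate 3.

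A whole-liver sample cannot tell fewer cells of a type from less RNA in each cell. The ranges here are of each list's members that passed the signal filter. For 44 of 53 collagen and stellate cell genes the summed signal was 51337 to 58330 in the water livers and 43567 to 56688 under phenobarbital, and 20 of the 44 had a positive difference. For 21 of 25 endothelial genes it was 15911 to 18792 against 14589 to 17359, with Bmp2 the only gene to pass (-0.61 ± 0.13, adjusted p = 0.00583; 0.0575 with only the compared groups and 0.243 with the mean of its probe sets). Of the 21, 4 had a positive difference (median -0.0947). For 18 of 24 Kupffer cell and macrophage genes it was 28363 to 35796 against 25274 to 34005, and 3 of the 18 had a positive difference (median -0.235), Lgals3 and Cd14 among them. For 14 of 26 lymphocyte and neutrophil genes it was 1792 to 2431 against 1461 to 2292, with 0 passing and 2 of the 14 positive (median -0.192). Summed levels of each of these types overlapped between the groups, and those of 4 red blood cell genes did too, 12994 to 15777 against 7692 to 13984.

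Lgals3, galectin 3, read 949, 890, 919 and 913 in the water livers and 1904, 2382, 1966 and 2759 under phenobarbital (1.26 ± 0.23, adjusted p = 0.00142). Cd14, the endotoxin co-receptor, rose by 0.94 ± 0.26 (adjusted p = 0.0454) with overlapping groups, and kept the call only without water replicate 2 or phenobarbital replicate 4. Cxcl9, a chemokine induced by interferon gamma, read 725, 508, 711 and 566 against 3742, 2439, 977 and 1518 (1.59 ± 0.29, adjusted p = 0.00142). It was the only one of 33 measured interferon and antigen presentation genes to pass, a share of 3.03% against 2.26% of all genes tested. The share of other cell types in these changes was not tested.

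Of 12 biliary and progenitor genes that passed the filter, 2 rose and 1 fell. Their summed signal was 4506 to 10741 in the water livers and 8369 to 11001 under phenobarbital. Epcam, an adhesion molecule of bile ducts and progenitors, rose from 495 to 870 in the water livers to 1217 to 1986 (1.26 ± 0.24, adjusted p = 0.00247). Sox4 rose by 1.52 ± 0.39 (adjusted p = 0.0345), and 7 of the 8 fits with an animal left out, all but that without phenobarbital replicate 3, lost the call. Tff3 fell. The focus and oncofetal genes Ggt1, with 118, 82.0, 142 and 116 against 123, 125, 150 and 178, and Afp, at -0.40 ± 0.17, did not pass.

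After 1 week, 132 of 10491 genes (1.26%) had differed between the same groups of animals. Of the 238 genes called after 6 weeks, 231 had the same sign after 1 week, 74 were also called then in the same direction and 0 in the opposite one. The remaining 164 were not called after 1 week, which does not show that they differed between the weeks. The share with the same sign among all genes tested was not computed, and the same animals were sampled at both times. Tested directly, 0 of 10910 genes (0%) passed for a different phenobarbital effect at the end, with 492 at an unadjusted p under 0.05. That fit did not use the pairing by animal, and 0 passing does not show equal effects. Because the labels pair the samples by animal, the fit with the animal as a block is given beside this: it called 7 genes, all with a positive change in the difference from 1 to 6 weeks, and 970 had an unadjusted p under 0.05.

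Phgdh led those 7. In the same animals after 1 week it had read 94.5, 26.5, 110 and 196 on water and 63.7, 124, 40.5 and 15.1 on phenobarbital. The groups overlapped then and were apart after 6 weeks, as water livers went down and phenobarbital livers went up in each animal. The change in difference was 2.96, with an adjusted p of 0.00158 with the animal block. Lpl had differed by 1.10 ± 0.40 after 1 week, when it read 256 to 507 on water and 474 to 1479 on phenobarbital, and the change was 2.39 (adjusted p = 0.00885 with the block). Akr7a3 changed by 1.32 (adjusted p = 0.0492 with the block) and Ddc by 0.63 (adjusted p = 0.015 with the block). Fam184a and Cux1, neither called after 6 weeks, and Nipal2 were the others. The difference in Cux1 after 6 weeks was 0.38 for the probe set used and -0.37 for its other probe set. For Fam184a the difference was -0.83 ± 0.22 after 1 week and 0.45 ± 0.17 after 6.

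Others of the large effects were given at both times by the same animals. The difference in Aldh1a1 was 4.08 ± 0.32 after 1 week and 4.0 ± 0.20 after 6, that in Ces2c 3.37 ± 0.27 and 3.52 ± 0.32, that in Ugt2b1 2.32 ± 0.14 and 2.75 ± 0.20, and that in Gstm3 2.79 ± 0.44 and 2.90 ± 0.38. Abcc3 went from 3.92 ± 0.32 to 5.49 ± 0.34, Gsta3 from 3.08 ± 0.36 to 4.38 ± 0.31, Lox from -4.42 ± 0.31 to -3.29 ± 0.30 and Obp3 from -0.32 ± 0.23 to -2.56 ± 0.56. None of these 8 changes between the weeks passed with all 62 arrays, with or without the animal block. With only the 16 arrays of these groups in the fit, Obp3 was the single gene to pass, at -2.24 (adjusted p = 0.0155). The piece taken after 1 week came from an intact liver and the terminal one from a regrown liver, so time on the drug and regrowth cannot be told apart.

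**Figure D5:**
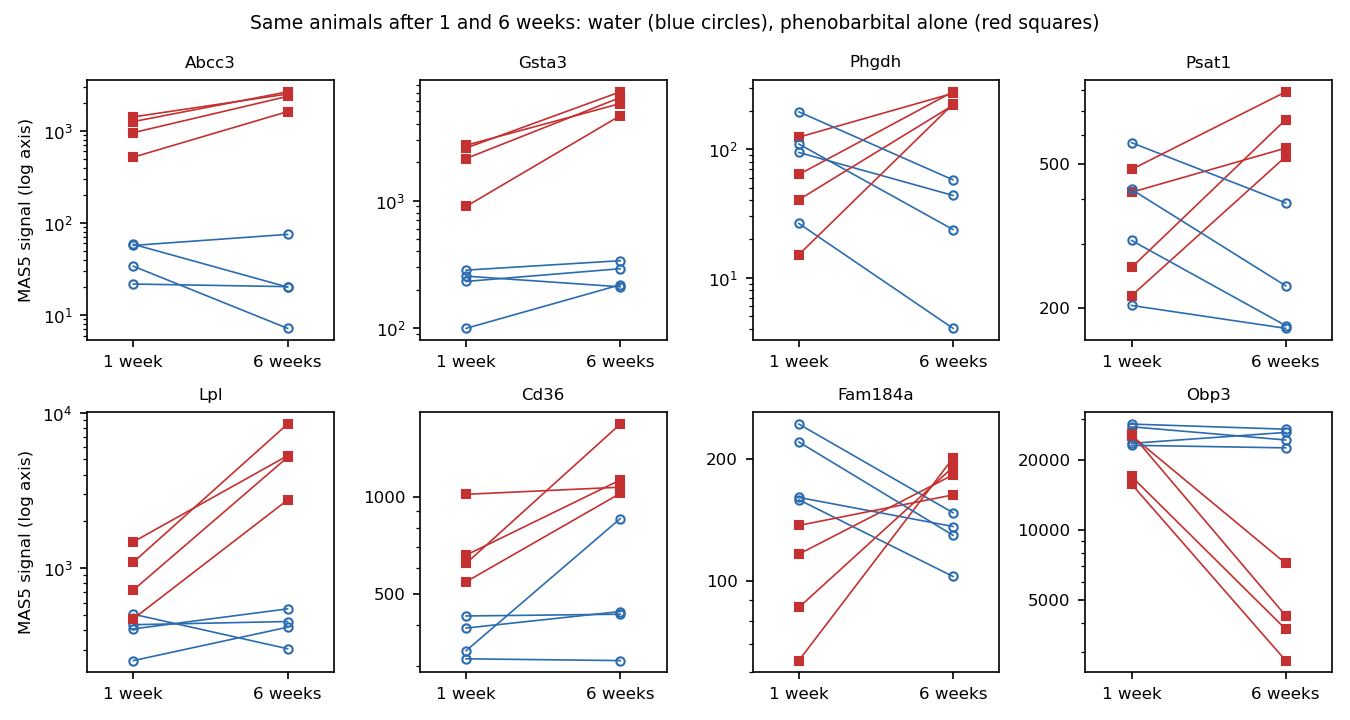
MAS5 signal on a log axis in the same animals after 1 and 6 weeks for 8 genes, with a line for each animal; blue circles are water and red squares phenobarbital, 4 animals each. Phgdh and Psat1 are mixed between groups after 1 week and separate after 6, Obp3 falls in each of the 4 phenobarbital animals, and Abcc3 is separate at both times.

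The 23 initiated livers on phenobarbital are described by their range, without a test, since a comparison with the water livers would share those controls. All 23 lay above every water liver for Abcc3 (811 to 3679), Gsta3 (2166 to 9092), Aldh1a1 (14459 to 36682), Ces2c, Lpl, Ugt2b1, Akr7a3, Nqo1 and Asns. All 23 lay below every water liver for Lox (86.6 to 518), Rb1 (205 to 628), Cyp17a1 (71.0 to 273) and Car1 (6.80 to 82.5). Others differed from animal to animal. Obp3 ranged from 3817 to 32335, with 17 of 23 below every water liver and 3 above all of them, and Dhrs7l1 from 1168 to 20766. RGD1309362 was above every water liver in 9 and below in 2.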

How the data were processed

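Total RNA from each liver was labelled and hybridised to Affymetrix arrays per the labels' protocols (no source used here gives the array model or scaling target). The authors deposited linear MAS5 intensities, made with version 5.0 of that algorithm per the submitters' processing notes. The table held 31099 probe sets; 57 controls, 9780 without a symbol and 436 with several stayed out of the gene tests, and the other 20826 covered 14217 genes. From these the log2 of the deposited intensity plus an offset of 25 was taken. Probe sets had to reach 100 on at least 4 arrays of the fit, and the set with the highest mean stood for its gene. Contrasts were fitted with limma 3.58.1 (R 4.3.3; lmFit and eBayes with trend, Benjamini-Hochberg adjustment, two-sided) on the 31 arrays of a week, or all 62 for the difference between weeks. Precision is limited by the number of arrays. Probe sets shared by a gene family were fitted among all probe sets.

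Animals of the 2 weeks are paired by the labels. Residuals of the same animal correlated at 0.211 to 0.298 on water and 0.314 to 0.392 on phenobarbital. No correlation of different animals between the weeks was computed, so these values do not test the pairing. Within the terminal week the same number in both groups names different animals, with correlations of 0.0883 to 0.103, so numbers were not used as pairs. The members and the gene lists were chosen with earlier results of these data known. Named genes are the 20 largest rises and falls among called genes without overlap, up to 5 called members of a list by p, a fixed set of liver genes where they passed the filter, and the 5 smallest p between weeks; lists were described by counts and medians. Alternatives were the offset, the filter, quantile normalization, probe set choice, samples in the fit, replicate and array set blocks, a fold threshold and leaving out animals. The fits were tested on simulated data.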

Additional observations from a re-analysis of the deposited data

Results flagged for a closer look

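A liver stood apart from the other 3 of its group in 9 of 224 groups of 4 examined, where the gap to the nearest liver exceeded 0.829 of the group's range; chance alone gives about 1 group in 20. Among water livers these were Adgrg2 in replicate 3, at 190.9 against 95.1 to 107 in the others, and Asns in replicate 4, at 101 against 80.4 to 83.3. In the phenobarbital group, replicate 2 read 1108 for Gpx2 against 32.9 to 51.8. Replicate 4 was lowest for Cyp51, at 8981 against 14690 to 15850. Replicate 3 read 23720 for Akr1c14 against 18170 to 18880, 2760 for Cyp4a1 against 4246 to 4283, and 63.64 for Nim1k against 26.6 to 29.8. Replicate 1 read 30910 for Cyb5a against 34500 to 35160, and 2334 for Ccnd1 against 950 to 1098.

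Fam184a went opposite ways at the 2 samplings, lower under phenobarbital after 1 week and higher after 6 in these animals, a change of 1.27385 on the log2 scale. It did not pass with all 62 arrays and passed with the animal as a block (adjusted p = 0.00885).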

How the results depend on the processing

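In the terminal contrast, none of the 83 named genes that passed changed sign in any setting in which it was tested. For named genes that did not pass, a change of sign was looked for only in settings where they passed. Some list medians near 0 changed sign between settings, among them that of cytochromes P450 of families 2 and 3, with the settings given there. Of the 238 genes, 168 higher and 70 lower, the replicate number as a block gave 389, 261 and 128 and the array set as a block 370, 245 and 125. Within set 1 alone there were 51 (41 higher, 10 lower), within set 2 alone 36 (32 and 4), and with a minimum log2 fold of 0.5 there were 25 (22 and 3), so that the share higher went from 70.6% to 80.4%, 88.9% and 88%. Leaving out an animal gave 141 to 179 genes, 105 to 130 higher and 35 to 56 lower: 141 without phenobarbital replicate 1, 143, 148 and 157 without water replicate 2, 1 and 3, and 150 without phenobarbital replicate 2. Other settings gave 192 to 260 genes. Of the genes called here, 236 were also called with the replicate block, 238 with the set block, 226 with quantile normalization, 198 with the mean of probe sets, 190 with no filter, 168 with only the compared groups, 131 to 161 with an animal left out, and 46, 32 and 25 within set 1, within set 2 and with the fold threshold. Among named genes, 11 lost their call with only the compared groups and 9 with the mean of probe sets. Named genes that passed had the same sign in both sets in 81 of 81, and their values differed over 1.5 times in 20. Where the groups of a gene do not overlap, as in most of these, that sign is fixed in advance and is no check. For the difference between weeks, the animal as a replicate block gave 7 genes, only the compared groups 1, no offset 1 (Phgdh), and both groups alone and the animal block, chosen after seeing the data, 22. No fit within a set had enough signal for Car1 and Nim1k. Signal over background limits genes under 100; no detection calls were used here.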
